A study of Rattus norvegicus with 9 samples.

Results

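Cultures of rat hippocampal neurons that received procalcitonin (PCT) were compared with cultures that received vehicle, gene by gene, for glial, immune and neuronal genes. The comparison used 6 of the 9 RNA sequencing libraries of the series, 3 labelled Control and 3 labelled PCT, and the 14459 of 34092 genes in the table whose mean FPKM (fragments scaled to gene length and library size) over these 6 libraries was at least 1. The cells were taken from wild-type rat hippocampus at embryonic day 17, grown in neurobasal medium with B27 and no inhibitor of cell division, and treated at 7 days in vitro. PCT libraries came from cultures exposed to PCT at 1 nM for 24 h, and control libraries from cultures given vehicle. Each culture was a mixed population, so that fewer cells of a type and less RNA per cell cannot be told apart. The labels number 3 replicates in each group, whereas the methods of the study speak of RNA pooled from biological triplicates, and the p-values below therefore measure the spread between these libraries, which may be technical.

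PCT is the precursor of the hormone calcitonin and rises in blood during bacterial infection. In brain tissue, microglia are the resident phagocytes and carry surface receptors that signal through adaptors such as Tyrobp and Fcer1g. Astrocytes take up glutamate and potassium, and in injury or inflammation they switch on a set of reactive genes that includes complement components and secreted acute-phase proteins.

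The libraries held between 14106698 and 17211642 fragments assigned to genes, and between 19206 and 19690 genes above 0. The share of fragments from the mitochondrial genome was 5.44% ± 0.352 in controls and 5.26% ± 1.06 with PCT (SD, n = 3 each). For these 3 measures an exact two-sided permutation test between groups gave p = 0.8, 0.3 and 0.9, and it cannot go below 0.1 with 3 against 3 libraries. PCT replicate 3 stood apart: its chi-square per degree of freedom against PCT replicates 1 and 2 was 21.6 and 18.9, whereas PCT replicates 1 and 2 gave 6.38 and pairs of control libraries 4.16 to 4.97. It also had the lowest mitochondrial share, 4.11%. Counts of changed genes are therefore given below without it too, for the whole set and for each list whose count moved.

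The cultures carried the markers of neurons and of astrocytes at similar summed levels. The 8 neuronal markers (Rbfox3, Tubb3, Map2, Snap25, Syt1, Stmn2, Slc17a7 and Gad1) were all tested, none was called, and they summed to 1972 to 2048 FPKM in controls and 1955 to 2148 FPKM with PCT. The 8 astrocyte markers summed to 2334 to 2514 FPKM in controls and 2057 to 2123 FPKM with PCT, without overlap. Microglial markers were present at low level, 13.6 to 20.2 FPKM in controls and 4.90 to 7.55 FPKM with PCT for the 7 of 8 found in the table, of which 4 were tested. Oligodendrocyte lineage markers summed to 146 to 151 FPKM in controls and 167 to 176 FPKM with PCT. Endothelial and pericyte markers were near the floor, at 5.09 to 5.32 FPKM against 4.07 to 4.79 FPKM, with Cldn5 at 0 in all 6 libraries. Fibroblast markers (11.8 to 15.3 FPKM against 13.6 to 22.6 FPKM), markers of dividing cells (68.3 to 76.1 FPKM against 66.1 to 74.2 FPKM) and red blood cell markers (0.115 to 0.407 FPKM against 0 to 0.293 FPKM) overlapped between groups.

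Many glial and immune genes were lower with PCT and a smaller set was higher, while the share of neuronal genes called was near that of all genes tested. A gene was called when the adjusted p of limma, after Benjamini-Hochberg adjustment over all genes tested, was at most 0.05 and the fold change exceeded 1.5. By this rule 291 genes changed, 2.01% of those tested, of which 219 fell (1.51%) and 72 rose (0.498%). All 291 were also separated between the groups, and over all genes tested the 3 PCT libraries lay below the 3 controls for 11.7% and above them for 14.0%. Of 125 genes in glial lists, 45 fell and 8 rose (42.4%). Of 180 genes in immune lists, 23 fell and 11 rose (18.9%). Members that passed the level filter only through the control group, such as 15 of 40 microglial and 4 of 17 chemokine genes, are included. Both class counts carry that selection. Some genes are in lists of both classes, and with each gene counted once 59 fell and 17 rose over the glial and immune lists. Of 251 genes in neuronal lists, 1 fell and 2 rose (1.20%), near the 2.01% of all genes tested; limma-voom on recovered fragments called 2 lower and 3 higher. Without PCT replicate 3, 329 genes were called, 248 of them among the 291, with 43 lower and 6 higher in glial lists and 25 lower and 5 higher in immune lists, and 2 lower and 2 higher in neuronal lists. Without PCT replicate 1, 13 genes of glial and 13 of immune lists were called higher, and without PCT replicate 2, 3 and 4. The control libraries moved the count most: 104 genes were called without Control 1, 128 without Control 2 and 90 without Control 3. In those 3 fits 22, 28 and 21 genes of glial lists and 7, 10 and 8 genes of immune lists were called lower, and 3, 3 and 2 glial and 2, 3 and 3 immune genes higher. In all, 78 genes, 67 lower and 11 higher, were called in each of the 6 fits that left out 1 library.

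**Figure D1:**
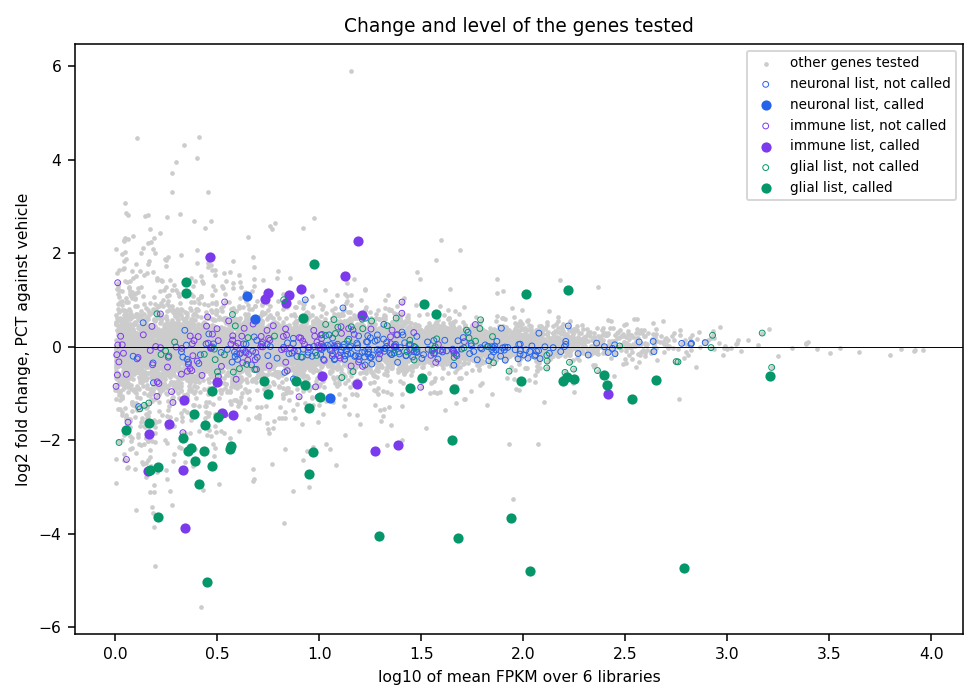
Each point is a gene tested, with the log10 of its mean FPKM over 6 libraries on the x axis and its log2 fold change of PCT against vehicle on the y axis; coloured points belong to glial, immune or neuronal lists (a gene in several is drawn as glial first, then immune) and filled points were called. Filled glial and immune points lie mostly below 0, and of 251 neuronal list genes 3 were called.

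The list levels in each library show the same order. Each tested gene's log2(FPKM + 0.1) was centred on its mean over the 6 libraries, and a list was summarised in each library by the median of its genes. For microglia the control libraries stood at 0.81, 0.56 and 0.65 and the PCT libraries at -0.82, -0.41 and -0.59. For homeostatic astrocytes the controls stood at 0.27, 0.23 and 0.24 and the PCT libraries at -0.19, -0.25 and -0.22. Both lists were separated between the groups, whereas the 6 libraries overlapped for the pan-neuronal list. However, 15 of the 40 microglial genes passed the level filter only through the control group, against 1 of the homeostatic astrocyte and 0 of the pan-neuronal genes. The microglial levels therefore carry that selection, and no levels were computed without these members.

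**Figure D2:**
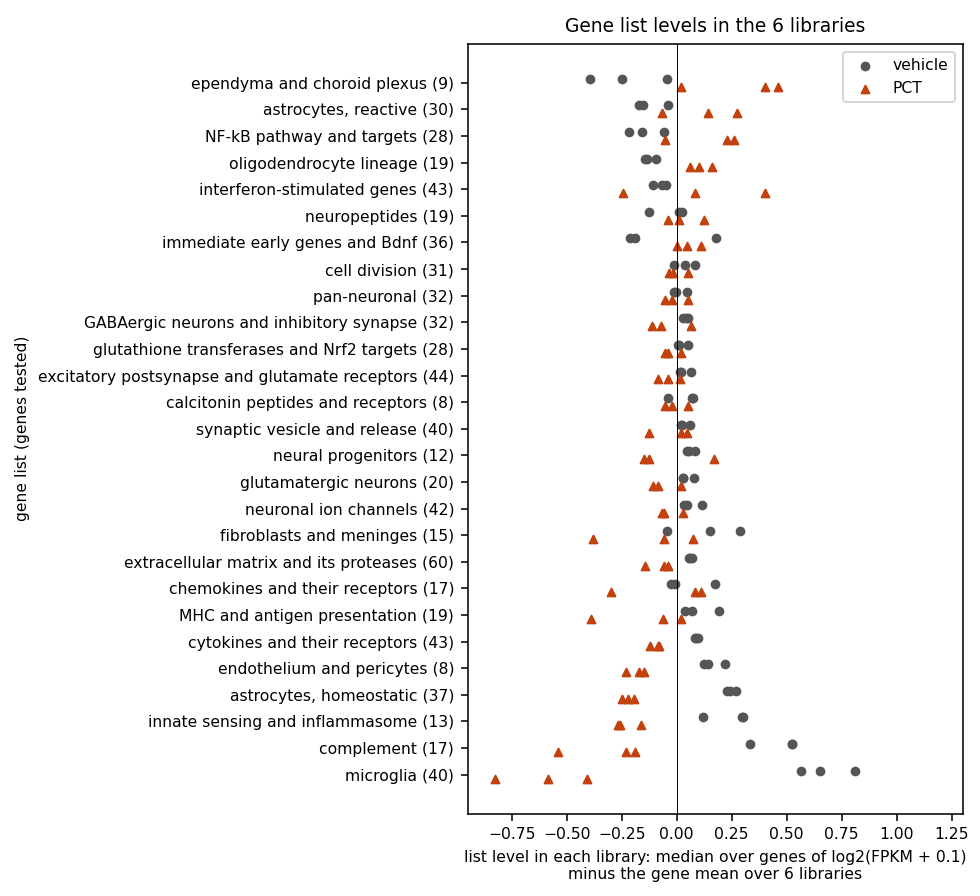
Level of each gene list (y axis, number of genes tested in brackets) in each vehicle library (circles) and PCT library (triangles), on a log2 scale centred on each gene's mean over 6 libraries (x axis). The microglial list has a median log2 fold change of -1.38 at the level filter used (-0.61 at a mean FPKM of at least 5), and the pan-neuronal list lies around 0.

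Most genes of the microglial list were lower with PCT, although their summed level was not. The FPKM of the tested members summed to 1794 to 1974 in controls and 1631 to 2299 with PCT, with overlap. Of 40 tested genes, 23 fell and none rose, against 1.51% and 0.498% of all genes tested. The list had 30 genes with all PCT libraries below all controls (11.7% of all genes tested were so placed). Its median log2 fold change was -1.38, against 0.01 over all genes tested, and -0.61 over the 12 members with a mean FPKM of at least 5, where the complement median was -1.07. Of the other listed genes, 24 were in the table below the level filter, 21 of them lower with PCT, 1 higher and 2 at 0 throughout. Of the 40, 15 passed the filter only through the control group, so the count among tested genes carries that selection. Without Control 1, Control 2 or Control 3, 9, 13 and 9 microglial genes were called lower. Without PCT replicates 1, 2 or 3, 19, 20 and 22 were, and 1 was called higher without PCT replicate 1.

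Lyz2 (ENSRNOG00000005825, chr7:60335969-60341264, minus strand), which encodes the lysozyme of phagocytes, was measured at 45.0, 26.6 and 39.4 FPKM in the controls and 1.93, 3.01 and 1.53 FPKM with PCT. The highest PCT library lay far below the lowest control. The log2 fold change was -4.06 (SE 0.28, adjusted p = 0.00144, limma with Benjamini-Hochberg adjustment), from 37.0 ± 9.47 to 2.16 ± 0.768 FPKM (SD, n = 3 each). Rac2, a GTPase of blood-derived cells that drives the phagocyte oxidase, stood at 14.7, 14.6 and 16.9 FPKM in controls and 1.58, 3.41 and 2.09 FPKM with PCT. It fell by 2.72 on the log2 scale (SE 0.25, limma adjusted p = 0.00414). Ncf1, a cytosolic subunit of the same oxidase, went from 4.63 ± 0.292 to 0.526 ± 0.0945 FPKM (SD, n = 3 each) and fell by 2.93. It passed the level filter only through the control group, and its fitted change ranged from -3.13 to -1.88 with the processing.

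The adaptors and their receptors fell with them. Fcer1g, the signalling chain of Fc receptors, was at 16.8, 13.6 and 16.1 FPKM in controls and 3.10, 2.79 and 3.70 FPKM with PCT (log2 fold change -2.25, SE 0.14, limma adjusted p = 9.71e-04). Tyrobp, the adaptor of Trem2, was at 5.84, 5.23 and 7.22 FPKM in controls and 1.34, 1.28 and 1.32 FPKM with PCT (log2 fold change -2.12, SE 0.16, limma adjusted p = 0.00183). The groups were separated for both genes, and both were called whichever library was left out. Fcgr3a, an Fc receptor, fell by 3.64, and Itgb2, the shared beta chain of leukocyte integrins, fell by 2.64; neither was called without Control 1, Control 2 or Control 3 (limma adjusted p up to 0.116 and 0.136). Both passed the level filter only through the control group; the PCT libraries held 1, 7 and 3 fragments of Fcgr3a, whose fitted change ranged from -4.39 to -1.79 with the processing. Fcgr3a has close relatives in the genome, so its reads could be divided among copies by the counting.

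Several genes that identify microglia fell at low level, whereas C1qa did not pass the test. Csf1r, the receptor that sustains microglia, was at 4.31, 2.78 and 4.37 FPKM in controls and 0.525, 0.760 and 0.945 FPKM with PCT, and Cx3cr1, the fractalkine receptor, at 3.44, 2.38 and 2.66 FPKM in controls and 0.508, 0.371 and 0.301 FPKM with PCT. Aif1, which encodes the marker Iba1, was at 5.29, 2.76 and 5.61 FPKM in controls and 1.12, 0.626 and 0.855 FPKM with PCT. Spi1, the transcription factor PU.1 of myeloid cells, fell from 2.25 ± 0.167 to 0.662 ± 0.0141 FPKM (SD, n = 3 each). All 4 passed the level filter only through the control group. They were separated between the groups, with log2 fold changes of -2.22, -2.57, -2.23 and -1.62 (limma adjusted p = 0.0125, 0.0104, 0.0201 and 0.0173). Their calls were not kept without Control 1 or Control 3 (limma adjusted p of 0.0561 to 0.116 where lost), nor, for Cx3cr1 and Spi1, without Control 2, nor, for Aif1, without PCT replicate 2. C1qa, a chain of the first complement component, overlapped between groups at 5.16, 3.78 and 5.01 FPKM against 2.19, 3.42 and 4.79 FPKM and was not called (log2 fold change -0.47, limma adjusted p = 0.438). C1qb, another chain of that component, fell from 7.52 ± 0.864 to 3.65 ± 0.122 FPKM (SD, n = 3 each; log2 fold change -1.02, limma adjusted p = 0.00801), although not past the threshold without Control 1 (0.0576).

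The remaining called genes of the microglial list included Lcp1, Laptm5, Vav1, Arhgdib, Ctss, Tlr2, Lyn, Unc93b1, Gpnmb and Slamf9. Lcp1, an actin-bundling protein of leukocytes, fell by 2.44 and Laptm5, a lysosomal protein of blood-derived cells, by 2.18, both called in every fit that left out 1 library. Lcp1, Vav1 and Slamf9 passed the level filter only through the control group. Lyn was lost without Control 1 or Control 3, Unc93b1 without any of the control libraries, and Vav1, Arhgdib and Ctss in each such fit except that without PCT replicate 3. Gpnmb, a lysosomal glycoprotein, was by far the most abundant of them at 219 ± 18.2 FPKM in controls and 136 ± 7.55 FPKM with PCT (SD, n = 3 each). Gpnmb fell by only 0.68 (limma adjusted p = 0.00923, and 0.0521 without Control 3). Which cells expressed it was not tested. Tlr2, a receptor for bacterial lipoproteins, fell by 1.44 with a limma adjusted p of 0.0496, and was called only without PCT replicate 2 among the 6 fits that left out 1 library. The fitted fold change of Slamf9 ranged from -6.63 to -2.59 with the processing, as its 3 PCT libraries held 2, 3 and 0 fragments against 129, 93 and 125 in controls.

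**Figure D3:**
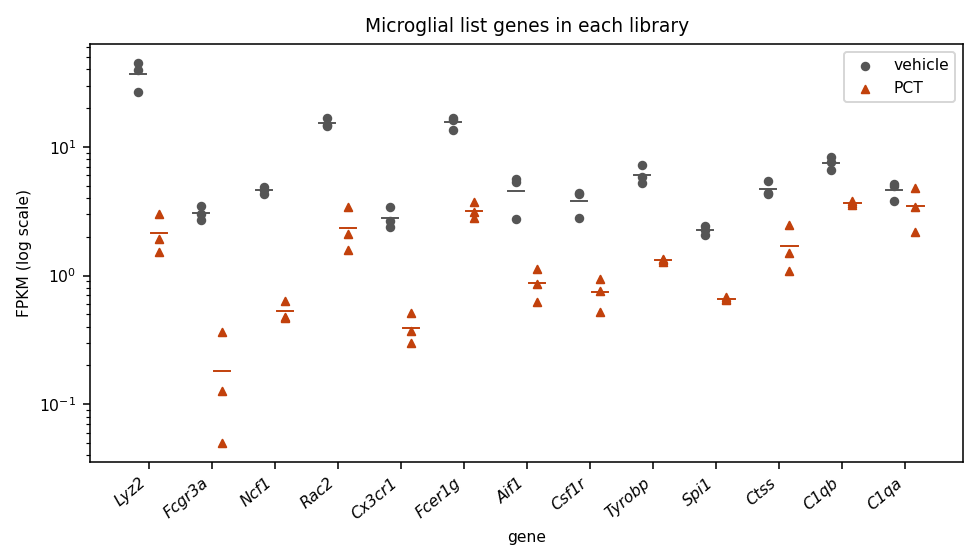
FPKM on a log scale (y axis) of 13 microglial list genes (x axis) in each vehicle library (circles) and PCT library (triangles), with group means as lines. The groups are separated for each gene drawn except C1qa, where the highest PCT library at 4.79 FPKM lies above the lowest control at 3.78 FPKM.

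Genes of resting astrocytes fell more modestly and more evenly. Of 37 tested genes of the homeostatic astrocyte list, 15 fell and none rose, against 1.51% and 0.498% of all genes tested. All PCT libraries lay below all controls for 29 of the 37, against 11.7% of all genes tested. The median log2 fold change was -0.45. Glul, which makes glutamine from glutamate, was at 562, 534 and 566 FPKM in controls and 343, 328 and 348 FPKM with PCT. Aldoc, the brain form of the glycolytic enzyme aldolase, was at 325, 334 and 332 FPKM in controls and 193, 181 and 186 FPKM with PCT. The groups were separated for both genes, which had log2 fold changes of -0.71 and -0.82 (limma adjusted p = 0.00271 and 0.00119) and were called whichever library was left out.

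Other called members included transporters and channels. Kcnj10, the inward-rectifying channel Kir4.1 that clears potassium, was at 37.1, 37.9 and 33.4 FPKM in controls and 21.6, 16.2 and 21.2 FPKM with PCT, a log2 fold change of -0.88 (SE 0.12, limma adjusted p = 0.0156). Slc4a4, a sodium bicarbonate cotransporter, fell by 0.89, Slc1a2, the main glutamate transporter, by 0.73, and Aqp4, the water channel of astrocyte endfeet, by 0.64. Slc25a18, a mitochondrial glutamate carrier, fell by 1.08 and Cyp4f4, a cytochrome P450 that passed the level filter only through the control group, by 1.96. Slc1a3, the other astrocyte glutamate transporter, had an adjusted p of 0.0468 (limma) but a fold of only 1.25 (log2 fold change -0.32), and Gja1, the gap junction protein connexin 43, a log2 fold change of -0.30 (limma adjusted p = 0.0745), so that neither was called. Sox9, a transcription factor of astrocytes, was at 24.3 ± 2.07 and 22.2 ± 1.12 FPKM (SD, n = 3 each). Without Control 1, Control 2 or Control 3, 8, 9 and 7 genes of this list were called, against 13, 13 and 15 without PCT replicates 1, 2 and 3. Kcnj10, Slc4a4 and Slc1a2 were lost without any of the control libraries (limma adjusted p of 0.0537 to 0.125 where lost), Slc1a2 also without PCT replicate 2, and Aqp4 without any of the controls or PCT replicate 3.

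Clu, S100b and Cst3 were other abundant members that fell. Clu, a secreted chaperone that restrains complement, was at 455, 457 and 480 FPKM in controls and 206, 245 and 192 FPKM with PCT, and fell by 1.12 (SE 0.10, limma adjusted p = 0.00308). S100b, a calcium-binding protein, was at 299 ± 8.34 FPKM in controls and 198 ± 5.79 FPKM with PCT (SD, n = 3 each), without overlap; its fold of 1.51 lay just past the threshold, and it was not called without Control 1 or PCT replicate 1. Cst3, a cysteine protease inhibitor, fell from 1956 ± 78.5 to 1275 ± 111 FPKM (SD, n = 3 each), a fold of 1.54 that was not past both thresholds without Control 1, Control 2, Control 3 or PCT replicate 2.

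The reactive astrocyte list divided. Of 30 tested genes, 7 fell and 7 rose, against 1.51% and 0.498% of all genes tested. All PCT libraries lay above all controls for 14 and below them for 9 (14.0% and 11.7% of all genes tested). The median log2 fold change was 0.32 although the largest changes were falls. The falls were Serping1, Lcn2, C3, Chi3l1, Steap4, Cp and Fbln5, and the rises Cxcl10, Lif, S100a10, Emp1, Timp1, Cd44 and Sbno2. Gfap, the intermediate filament whose increase marks reactive astrocytes, was at 828, 765 and 734 FPKM in controls and 899, 931 and 926 FPKM with PCT, without overlap; it was not called (log2 fold change 0.25, limma adjusted p = 0.116). Vim, another filament protein of reactive astrocytes, was not called either. Without Control 1, Control 2 or Control 3, 5, 6 and 5 genes of this list were called lower and 3, 2 and 2 higher. Without PCT replicates 1, 2 or 3, 7, 7 and 6 were called lower and 9, 3 and 5 higher.

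The largest falls among these were in secreted proteins. Lcn2 (ENSRNOG00000013973, chr3:11414186-11417546, minus strand), the iron-siderophore binding protein lipocalin 2, was at 1321, 1025 and 1205 FPKM in controls and 27.6, 74.9 and 41.0 FPKM with PCT. It fell by 4.74 on the log2 scale (SE 0.33, limma adjusted p = 0.00149). Chi3l1, a chitinase-like protein secreted by reactive astrocytes, was at 181, 131 and 171 FPKM in controls and 8.25, 16.4 and 14.2 FPKM with PCT, a log2 fold change of -3.67 (SE 0.26, limma adjusted p = 0.00149). In each of these genes Control 2 was the lowest control and PCT replicate 2 the highest PCT library, and the groups stayed separated. Cp, the copper-carrying ferroxidase ceruloplasmin, fell from 70.9 ± 11.2 to 18.1 ± 5.01 FPKM (SD, n = 3 each), and Steap4, a metalloreductase, from 5.15 ± 1.77 to 0.774 ± 0.210 FPKM (SD, n = 3 each). Lcn2, Chi3l1 and Cp were called in every fit that left out 1 library, whereas Steap4, which passed the level filter only through the control group, was lost without Control 1 or Control 3 (limma adjusted p = 0.0648 to 0.0716).

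The rises were smaller. S100a10, the annexin A2 partner p11, was at 95.4, 107 and 96.7 FPKM in controls and 194, 261 and 240.2 FPKM with PCT (log2 fold change 1.21, SE 0.12, limma adjusted p = 0.00454). Timp1, an inhibitor of matrix metalloproteinases, was at 70.3, 65.2 and 57.2 FPKM in controls and 122, 153 and 150.1 FPKM with PCT (log2 fold change 1.14, SE 0.11, limma adjusted p = 0.00529). Cd44, a hyaluronan receptor, rose from 22.6 ± 2.30 to 42.6 ± 5.55 FPKM (SD, n = 3 each). Groups did not overlap for these 3 genes. S100a10 and Timp1 were called whichever library was left out, and Cd44 was lost without Control 2 or Control 3 (limma adjusted p = 0.0693 at most). Lif, a cytokine of the interleukin 6 family, had a log2 fold change of 1.39 (limma adjusted p = 0.0477) but was not called in any of the fits that left out 1 library.

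**Figure D4:**
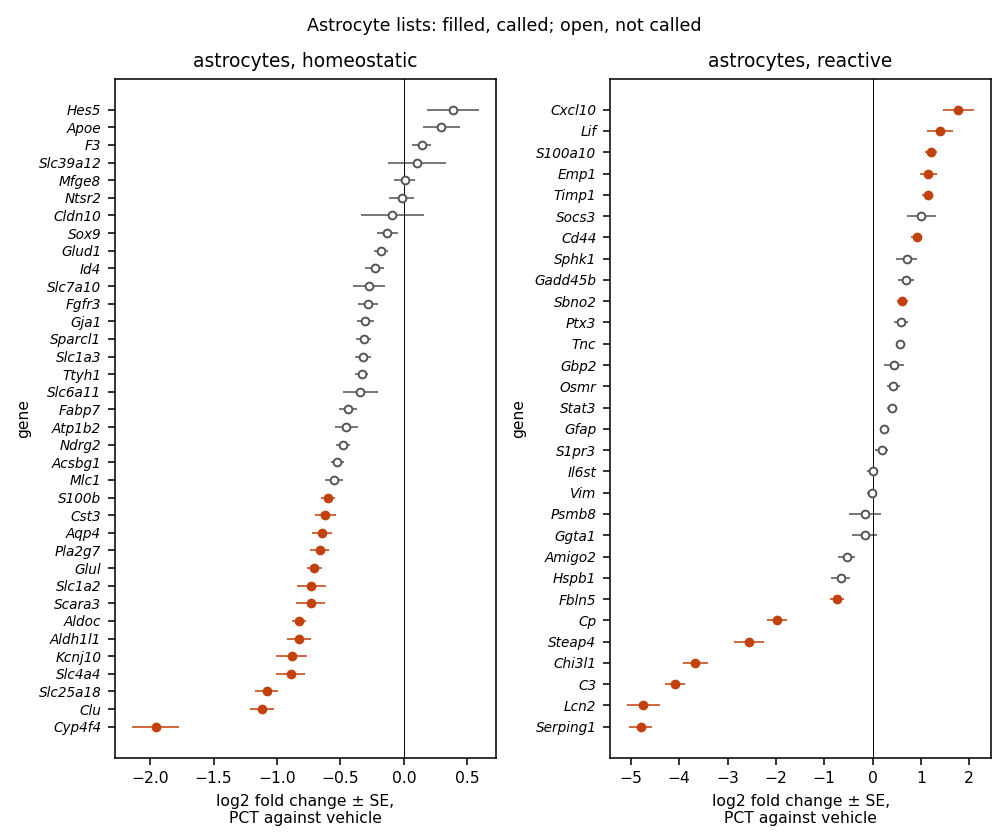
Log2 fold change of PCT against vehicle (x axis; bars, SE) for tested genes (y axis) of the homeostatic (left) and reactive (right) astrocyte lists; filled points were called. In the homeostatic list the called genes drawn are all lower, and in the reactive list 7 are lower and 7 higher.

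Oligodendrocyte lineage genes leaned the other way. Of 19 tested, 1 rose and none fell, against 0.498% and 1.51% of all genes tested. All PCT libraries lay above all controls for 12 (14.0% of all genes tested were so placed). The median log2 fold change was 0.23. With Control 1, Control 2 or Control 3 left out, 0, 1 and 0 genes of the list were called higher, and without PCT replicates 1, 2 or 3, 3, 0 and 1 were. Bcas1, which marks newly forming oligodendrocytes, was at 27.7, 29.7 and 27.4 FPKM in controls and 37.6, 48.3 and 53.6 FPKM with PCT (log2 fold change 0.70, limma adjusted p = 0.0416). It was not called without Control 1, Control 2, Control 3 or PCT replicate 2, so the gene called without Control 2 was another. Mbp, a myelin protein, had a log2 fold change of 0.48 (limma adjusted p = 0.123).

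Complement genes were lower with PCT. Of 17 tested, 8 fell and none rose, against 1.51% and 0.498% of all genes tested. All PCT libraries lay below all controls for 10 (11.7% of all genes tested). The median log2 fold change was -0.49, and -0.78 to -0.34 when 1 library was left out. At a mean FPKM of at least 5 it was -1.07. Without Control 1, Control 2 or Control 3, 5, 6 and 6 of the 17 were called, and 8 without any 1 of the PCT replicates. The list shares Serping1 and C3 with the reactive astrocyte list, C1qb with the microglial list and Clu with the homeostatic astrocyte list. C3 (ENSRNOG00000046834, chr9:9721105-9747167, plus strand), the central component on which the pathways converge, was at 99.2, 76.0 and 94.4 FPKM in controls and 3.86, 6.74 and 5.27 FPKM with PCT. It fell by 4.09 on the log2 scale (SE 0.20, limma adjusted p = 5.99e-04). Serping1, the inhibitor of the C1 proteases, went from 209 ± 30.6 to 7.64 ± 2.59 FPKM (SD, n = 3 each), so that an inhibitor and a component of the cascade were both lower.

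The proteases that start the classical pathway fell by about the same amount as each other. C1s was at 32.0, 28.8 and 31.4 FPKM in controls and 4.51, 8.09 and 7.31 FPKM with PCT (log2 fold change -2.24, SE 0.21, limma adjusted p = 0.00403). C1r was at 42.5, 35.6 and 39.9 FPKM in controls and 7.66, 10 and 9.79 FPKM with PCT (log2 fold change -2.10, SE 0.12, limma adjusted p = 9.71e-04). Both were called in every fit that left out 1 library. C2, which C1s cleaves, fell by 2.63 and C3ar1, the receptor for the C3a fragment, by 1.87; both passed the level filter only through the control group, and both were lost without Control 1, Control 2 or Control 3 (limma adjusted p = 0.0521 to 0.125).

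Antigen presentation genes showed 4 falls and no rise among 19 tested (median log2 fold change -0.15), against 1.51% and 0.498% of all genes tested. Without Control 1, Control 2 or Control 3, 1, 2 and 1 were called. B2m, the light chain of class I molecules, was at 352, 355 and 335 FPKM in controls and 179.6, 186 and 155 FPKM with PCT, a 2.01-fold fall (log2 SE 0.08, limma adjusted p = 0.00267), and was called whichever library was left out. Cd74, the invariant chain of class II molecules, was at 4.36, 3.62 and 4.62 FPKM in controls and 0.291, 0.253 and 0.0819 FPKM with PCT, and fell by 3.87, a call lost without Control 1 or Control 3 (limma adjusted p = 0.0541 and 0.0573). It passed the level filter only through the control group, its PCT libraries held 6, 5 and 2 fragments, and its fitted change ranged from -4.43 to -2.10 with the processing. RT1-A2, a class I heavy chain, fell by 1.42 (limma adjusted p = 0.0155; 0.0774 to 0.0964 without a control library); it belongs to a family of near-identical copies, and its value depends on how reads were shared among them. Ctss, the protease that trims Cd74, fell by 1.50 and was called only without PCT replicate 3 among the 6 fits that left out 1 library.

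Chemokines moved in both directions. Of 17 tested, 2 fell and 2 rose (median log2 fold change -0.13, and 0.03 without PCT replicate 1), against 1.51% and 0.498% of all genes tested. Without PCT replicates 1, 2 or 3, 2 fell and 3, 1 and 1 rose, and without any 1 of the control libraries 0 fell and 1 rose. Of the 17, 4 passed the level filter only through the control group, both falls (Cxcl9 and Cx3cr1) among them. Cxcl1 (ENSRNOG00000002802, chr14:18743685-18745457, minus strand), which attracts neutrophils, was at 5.77, 4.71 and 4.85 FPKM in controls and 17.8, 35.4 and 23.9 FPKM with PCT. It rose by 2.25 on the log2 scale (SE 0.24, limma adjusted p = 0.00647) and was called whichever library was left out. Cxcl10 (ENSRNOG00000022256, chr14:17210733-17212930, plus strand), an interferon-induced attractant of T cells, was at 4.71, 5.27 and 2.68 FPKM in controls and 10.3, 20.3 and 13.5 FPKM with PCT. Its rise by 1.78 (SE 0.32, limma adjusted p = 0.0383) was called only without PCT replicate 1 among the fits that left out 1 library. Cxcl9, a related ligand of the same receptor, went the opposite way, at 3.13, 2.55 and 1.98 FPKM in controls and 0.360, 0.375 and 0.228 FPKM with PCT (log2 fold change -2.65, limma adjusted p = 0.0123; lost without Control 1, Control 2 or Control 3).

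The promoters of Lcn2, C3, Cxcl1 and Cxcl10 are printed because these secreted immune genes moved in opposite directions. C3 lies on the plus strand in the deposited coordinates given above and on the minus strand in GRCr8, and the reason for this difference was not examined. Each line holds the 250 bases before the RefSeq gene start, read 5′ to 3′ on the gene's strand in build GRCr8, with capitals on letters that match the NF-kB consensus or the interferon-stimulated response element, GAAA then NN then GAAA (both strands searched).
Lcn2, GRCr8 chr3:36081781-36082030, minus strand: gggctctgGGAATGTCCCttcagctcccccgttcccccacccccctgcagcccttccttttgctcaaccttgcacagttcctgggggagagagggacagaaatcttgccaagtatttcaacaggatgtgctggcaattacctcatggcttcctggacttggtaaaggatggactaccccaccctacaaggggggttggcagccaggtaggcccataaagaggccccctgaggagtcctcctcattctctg
C3, GRCr8 chr9:2201340-2201589, minus strand: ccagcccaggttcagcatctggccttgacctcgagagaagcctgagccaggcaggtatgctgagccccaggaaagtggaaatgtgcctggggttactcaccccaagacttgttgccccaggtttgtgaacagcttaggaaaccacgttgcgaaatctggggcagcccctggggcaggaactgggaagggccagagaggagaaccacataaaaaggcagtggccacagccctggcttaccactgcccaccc
Cxcl1, GRCr8 chr14:17479322-17479571, minus strand: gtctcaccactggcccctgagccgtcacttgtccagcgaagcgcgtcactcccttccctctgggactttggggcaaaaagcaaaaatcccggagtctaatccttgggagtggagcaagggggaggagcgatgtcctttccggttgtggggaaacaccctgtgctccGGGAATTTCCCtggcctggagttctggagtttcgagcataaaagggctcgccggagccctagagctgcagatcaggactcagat
Cxcl10, GRCr8 chr14:15988816-15989065, plus strand: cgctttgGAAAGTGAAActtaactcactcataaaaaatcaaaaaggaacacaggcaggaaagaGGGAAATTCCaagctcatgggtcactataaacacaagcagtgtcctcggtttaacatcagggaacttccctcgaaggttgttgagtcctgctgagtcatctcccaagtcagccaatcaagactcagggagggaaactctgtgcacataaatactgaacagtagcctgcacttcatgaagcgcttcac
The NF-kB letters were found in Lcn2, in Cxcl1 as overlapping matches on the 2 strands, and in Cxcl10, and the interferon-stimulated letters in Cxcl10 alone; C3 held neither in this window. Over 1 promoter for each of 27457 gene symbols, 3.52% held the NF-kB letters and 3.29% the interferon-stimulated letters. Among tested genes with a promoter in the table the shares were 4.35% and 2.38% of 9515. Of the 48 called higher with a promoter, 8 held the NF-kB letters and 4 the interferon-stimulated letters, and of the 150 called lower, 9 and 10. The letters GAGGAAGT, a core bound by PU.1, were in 7 of the 150, in 0 of the 48 and in 2.07% of the 9515 (both strands). These counts describe letters in a window and carry no test.

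Interferon-stimulated and NF-kB target genes held both rises and falls, and the PCT libraries differed among themselves. Of 43 tested interferon-stimulated genes, 3 rose and 2 fell (median log2 fold change 0.14), and of 28 NF-kB pathway genes, 3 rose and 1 fell (median 0.27). Of all genes tested, 0.498% rose and 1.51% fell. In the interferon list 1 gene passed the level filter only through the control group and 2 only through the PCT group. In the NF-kB list 2 passed only through the control group. The interferon list stood at -0.07, -0.05 and -0.11 in the controls and at -0.24, 0.40 and 0.08 with PCT, with 4 of 43 genes above all controls in every PCT library (14.0% of all genes tested) and 5 below (11.7%). The NF-kB list stood at -0.06, -0.16 and -0.22 in the controls and at -0.05, 0.26 and 0.23 with PCT, where PCT replicate 1 was barely above the highest control. Of its 28 genes 22 had log2 fold changes above 0, 11 were above all controls in every PCT library and 2 were below. Without PCT replicate 3, 1 interferon gene rose and 3 fell, and 1 NF-kB gene rose and 1 fell. Without PCT replicate 2, 1 interferon gene rose and 2 fell, and 1 NF-kB gene rose and 1 fell. Without PCT replicate 1, 3 interferon genes rose and 2 fell, and 5 NF-kB genes rose and 1 fell. Without Control 1, Control 2 or Control 3, 0, 1 and 1 interferon genes rose and 0 fell, and 0 NF-kB genes rose in each. Irf1, a transcription factor of the interferon response, was at 4.71, 5.05 and 3.71 FPKM in controls and 8.73, 10.3 and 10.1 FPKM with PCT (log2 fold change 1.10, SE 0.14, limma adjusted p = 0.0109), and was lost only without Control 1 (limma adjusted p = 0.0582). Rsad2, the antiviral enzyme viperin, was at 0.943, 1.46 and 0.904 FPKM in controls and 2.78, 7.25 and 4.18 FPKM with PCT, and Gbp5, a guanylate-binding GTPase, at 5.03, 4.30 and 4.71 FPKM in controls and 7.79, 13.4 and 13.4 FPKM with PCT. Both were called (log2 fold change 1.93 and 1.24, limma adjusted p = 0.0449 and 0.0346) but only without PCT replicate 1 among the fits that left out 1 library. Bst2, the virus-tethering protein tetherin, fell by 1.47 and Lgals3bp, a secreted galectin ligand, by 0.80 (limma adjusted p = 0.0293 and 0.0310), and both calls were lost without Control 1, Control 2 or Control 3.

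Of the NF-kB list, Icam1, an adhesion molecule for leukocytes, rose from 12.3 ± 0.511 to 20 ± 3.19 FPKM (SD, n = 3 each). Nfkb2, the precursor of the p52 subunit, rose from 4.66 ± 0.683 to 9.09 ± 1.87 FPKM, and Ier3, an early response protein, from 3.40 ± 0.0861 to 7.78 ± 1.72 FPKM (SD, n = 3 each). The limma adjusted p was 0.0370, 0.0477 and 0.0154. The 3 genes had no overlap between groups but were lost without any of the control libraries, and Icam1 and Nfkb2 also without PCT replicate 2 or 3. Lcn2 was the member that fell.

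**Figure D5:**
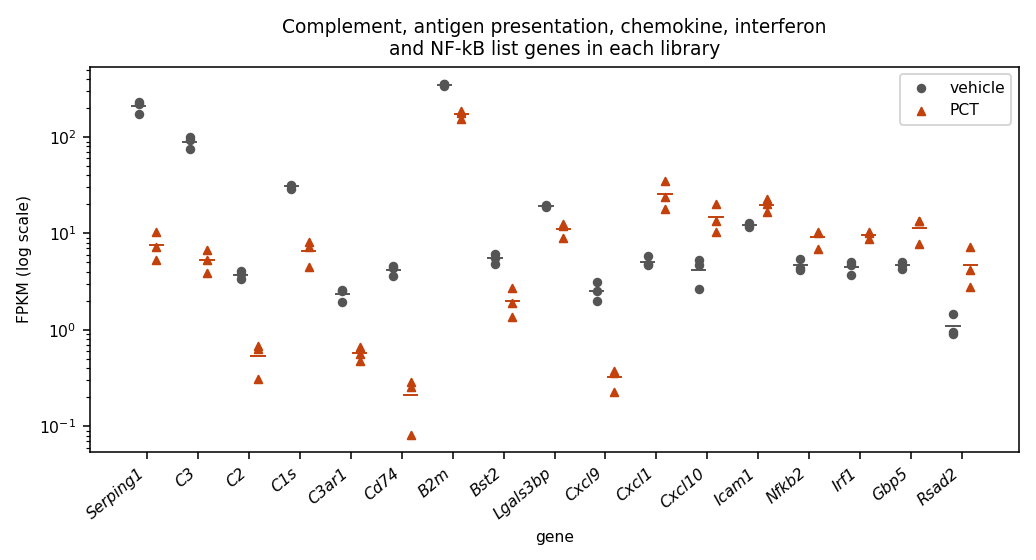
FPKM on a log scale (y axis) of called genes (x axis) from the complement, antigen presentation, chemokine, interferon and NF-kB lists in each vehicle library (circles) and PCT library (triangles), with group means as lines. Complement and antigen presentation genes are lower with PCT, and Cxcl1, Cxcl10, Icam1, Nfkb2, Irf1, Gbp5 and Rsad2 higher, with no overlap between groups.

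Cytokines and their receptors gave 5 falls and 3 rises among 43 tested, against 1.51% and 0.498% of all genes tested. The median log2 fold change was -0.19, and 0.0026 at a mean FPKM of at least 5. Without Control 1, Control 2 or Control 3, 0, 1 and 0 fell and 1 rose, and without PCT replicates 1, 2 or 3, 3, 1 and 7 fell and 2, 1 and 2 rose. The falls were in Csf1r, its ligand Il34, the inflammasome product Il18 and the receptor chains Il10rb and Il11ra1. Of the 43, 3 passed the level filter only through the control group, Csf1r and Il18 among them. Il18, Il10rb and Il11ra1 were each lost without any of the control libraries and without PCT replicate 2, and Il10rb also without PCT replicate 1 (limma adjusted p up to 0.191). Il34 was at 2.53, 3.03 and 3.47 FPKM in controls and 1.27, 1.12 and 1.53 FPKM with PCT (log2 fold change -1.14, limma adjusted p = 0.0383, called only without PCT replicate 3 among the fits that left out 1 library). The rises were in Il1rap, the accessory chain of the interleukin 1 receptor, in Tnfrsf12a, the receptor of TWEAK, and in Lif. Il1rap was at 3.80, 3.68 and 3.13 FPKM in controls and 6.53, 7.54 and 7.70 FPKM with PCT, and was called in every such fit (log2 fold change 1.02, SE 0.12, limma adjusted p = 0.00962). Tnfrsf12a was even in controls at 6.50, 6.69 and 6.60 FPKM and spread with PCT at 12.5, 18.3 and 29.5 FPKM. Its log2 fold change was 1.51 (limma adjusted p = 0.0416), lost without Control 1, Control 2, Control 3 or PCT replicate 2. Among 13 tested genes of innate sensing, Tlr2 alone was called, where 2.01% of all genes tested were. Its call was lost without any 1 of the control libraries or PCT replicate 1 or 3. All PCT libraries lay below all controls for 8 of the 13 (11.7% of all genes tested), and the median log2 fold change was -0.47. An unadjusted limma p under 0.05 was found for 7 (18.7% of all genes tested). Of the 13, 2 passed the level filter only through the control group, so these counts and the median carry that selection.

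Few neuronal genes were called. No gene of the pan-neuronal list (32 tested, median log2 fold change -0.02), of the glutamatergic list (20, -0.10), of the GABAergic and inhibitory synapse list (32, -0.05) or of the synaptic vesicle list (40, -0.08) was called by limma, where the smallest adjusted p was 0.0597, 0.0648, 0.107 and 0.134, nor by limma-voom on recovered fragments. At an unadjusted p under 0.05 the counts were 5, 4, 4 and 5, against 2702 of all 14459 genes tested (18.7%). All PCT libraries were below all controls for 5, 5, 2 and 5 genes of these lists, for 12 of 42 ion channel genes and for 9 of 44 excitatory postsynapse genes (11.7% of all genes tested), and above them for 3, 2, 3, 2, 3 and 0 (14.0%). Fold changes were below 0 on the log2 scale for 32 of the ion channel and 34 of the postsynapse genes (48.0% of all genes tested), with medians of -0.11 and -0.06. Tubb3, the neuronal tubulin, was at 623, 640.4 and 686 FPKM in controls and 691, 592 and 749.5 FPKM with PCT. Map2, a dendritic microtubule protein, was at 194, 195 and 195 FPKM in controls and 199, 176 and 156 FPKM with PCT. Slc17a7, the vesicular glutamate transporter VGLUT1, was at 111, 115 and 117 FPKM in controls and 99.1, 91.4 and 99.2 FPKM with PCT, and Sst, the interneuron peptide somatostatin, at 142, 134 and 144 FPKM in controls and 158, 206 and 213 FPKM with PCT. Slc17a7 and Sst did not overlap between the groups but were not called (log2 fold change -0.24 and 0.45, limma adjusted p = 0.0874 and 0.107). A p that misses the threshold does not show equal levels.

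The called genes of neuronal lists were Grm3, Kcnt1 and Atf3. Each was the only call of its list, at 2.27%, 2.38% and 2.78% of the genes tested there, near the 2.01% of all genes tested. Grm3, a metabotropic glutamate receptor that astrocytes also express, was at 15.4, 13.1 and 17.6 FPKM in controls and 7.59, 7.72 and 5.98 FPKM with PCT (log2 fold change -1.10, limma adjusted p = 0.0131), the only call among 44 genes of the excitatory postsynapse. Kcnt1, a sodium-activated potassium channel, was at 3.94, 3.67 and 3.89 FPKM in controls and 5.58, 6.30 and 5.66 FPKM with PCT, the only call among 42 ion channel genes and at a fold of 1.51. Atf3, a stress-induced transcription factor, was at 2.78, 2.88 and 2.59 FPKM in controls and 5.49, 7.37 and 5.29 FPKM with PCT, the only call among 36 immediate early genes. Grm3 was lost without Control 1 or Control 3, Atf3 without any of the controls, and Kcnt1 without any library but PCT replicate 3. None of 19 neuropeptide genes was called by limma (6 at an unadjusted p under 0.05, which 18.7% of all genes tested had, 1 called by limma-voom, and 1 lower without PCT replicate 1 or 3).

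The list of calcitonin peptides, receptors and signalling genes held no call. Of its 8 tested rows none was called by limma or limma-voom, and 2 had an unadjusted p under 0.05 (18.7% of all genes tested). The tested rows were Adm, Calcrl, Ramp2, Crcp, the CGRP receptor component protein, Gnas, a G protein subunit with 2 rows, and the adenylyl cyclases Adcy1 and Adcy8. Calcrl, the receptor shared by CGRP and adrenomedullin, was at 5.09, 5.55 and 4.76 FPKM in controls and 5.26, 4.65 and 4.64 FPKM with PCT. Ramp2, which pairs with Calcrl, was at 5.97 ± 1.13 and 8.03 ± 1.83 FPKM (SD, n = 3 each; limma adjusted p = 0.316). Another 8 rows of the list were in the table below the level filter and were not tested. Among them was Calca, which encodes PCT, at a mean of 0.962 FPKM in controls and 0.906 FPKM with PCT. Calcr, the calcitonin receptor, was another, at 0.120 FPKM in controls and 0.175 FPKM with PCT.

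Genes of glutathione handling and of the matrix changed beyond the glial and immune lists. Of 28 tested genes of glutathione transferases and Nrf2 targets, 6 fell and 1 rose, against 1.51% and 0.498% of all genes tested. Without Control 1, Control 2 or Control 3, 3, 4 and 3 fell, and without PCT replicate 3, 5 fell. Slc7a11, the cystine importer that feeds glutathione synthesis, was at 99.6, 94.3 and 84.6 FPKM in controls and 42.9, 39.4 and 35.3 FPKM with PCT (log2 fold change -1.24, SE 0.10, limma adjusted p = 0.00209). Gsta4, which detoxifies lipid aldehydes, was at 48.5, 46.5 and 44.0 FPKM in controls and 21.9, 23.6 and 24.0 FPKM with PCT (from 46.3 ± 2.22 to 23.2 ± 1.12 FPKM, SD, n = 3 each; log2 SE 0.07, limma adjusted p = 0.00144). Both were called whichever library was left out. Hpgds, the prostaglandin D synthase of blood-derived cells, fell by 3.09, passed the level filter only through the control group, and was lost without any of the controls (limma adjusted p = 0.0582 to 0.0882). Gstm1 fell by 0.65 from 191 ± 8.47 FPKM (SD, n = 3), whereas Gstm3 rose by 5.91 from 0.348 ± 0.111 to 28.1 ± 11.3 FPKM (SD, n = 3 each). Gstm3 passed the level filter only through the PCT group, and as its control level is near the pseudocount of 0.1, its fitted change ranged from 4.35 to 6.37 with the processing; the Gstm genes are close copies of each other, and reads may have been shared among them.

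Of 60 matrix genes tested, 5 fell and 2 rose, against 1.51% and 0.498% of all genes tested. Of the 60, 1 passed the level filter only through the control group. Without Control 1, Control 2 or Control 3, 2, 4 and 2 fell and 1 rose. Without PCT replicates 1, 2 or 3, 6, 5 and 5 fell and 5, 1 and 2 rose. Mmp2, the gelatinase A that cuts basement membrane collagen, was at 22.6, 19.1 and 21.4 FPKM in controls and 4.89, 5.75 and 6.29 FPKM with PCT (log2 fold change -1.88, SE 0.12, limma adjusted p = 9.71e-04). Its inhibitor Timp1 rose, as given above, so that the protease and the inhibitor moved in opposite directions. Col6a2, a chain of collagen VI, fell from 14.0 ± 0.250 to 5.84 ± 0.714 FPKM (SD, n = 3 each), while Col18a1, the precursor of endostatin, rose from 1.64 ± 0.202 to 3.43 ± 0.587 FPKM (SD, n = 3 each). Mmp2 and Col6a2 were called whichever library was left out, and Col18a1 was called only without PCT replicate 1. Of the fibroblast list, 3 of 15 fell (Slc13a3, Col6a2 and Fmod), against 1.51% of all genes tested. The count was 2 without any 1 of the control libraries and 4, 3 and 5 without PCT replicates 1, 2 or 3 (2 rose without PCT replicate 1). The fibrillar collagens Col1a1 and Col3a1 were not called, at log2 fold changes of 0.44 and 0.87 (limma adjusted p = 0.258 and 0.0856).

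Lists for other cell types held few calls, although some had medians away from 0. Over all genes tested, 1.51% fell and 0.498% rose. None of 31 cell division genes was called by limma or limma-voom (7 at an unadjusted p under 0.05, which 18.7% of all genes tested had, median log2 fold change 0.01). None of 8 endothelial and pericyte genes was called by limma, against 1 by limma-voom and 4 at an unadjusted p under 0.05. All PCT libraries lay below all controls for 6 of them (11.7% of all genes tested), with a median log2 fold change of -0.30. Of the 8, 2 passed the level filter only through the control group and 1 only through the PCT group, so the count and the median carry that selection. Of 12 neural progenitor genes Hopx fell (log2 fold change -0.73, limma adjusted p = 0.0441, called only without PCT replicate 3 among the fits that left out 1 library, where 1 other gene was called higher). All 9 ependymal and choroid plexus genes had fold changes above 0 (median log2 fold change 0.57), and 4 had all PCT libraries above all controls (14.0% of all genes tested). Of these, Ttr, the thyroxine carrier transthyretin, was the only call and rose from 10.6 ± 1.07 to 21.4 ± 2.11 FPKM (SD, n = 3 each), whichever library was left out. No red blood cell gene reached the level filter. The part of any cell type in the falls and rises above was not tested.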

How the data were processed

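RNA in 6 libraries, 3 labelled Control and 3 labelled PCT, was compared; the 3 further FPKM columns of the table were not used here. The deposited values are FPKM per gene. Per the study's methods and the submitters' processing notes, the authors prepared poly-T selected libraries for Illumina sequencing, aligned reads with HISAT2 2.0.5, counted them with featureCounts 1.5.0-p3 and tested counts with DESeq2 1.20.0; the notes also name StringTie 1.3.3b and the build Rnor 6.0, and gene coordinates are those of the deposited table. Whether counting used strand is not given in the sources used here, so reads of overlapping genes may be shared. Every FPKM value was a whole multiple of the value of 1 fragment (100% within 0.05 fragments), from which fragments per library were recovered: 14106698 to 17211642.

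Genes passing the mean FPKM filter of 1 were fitted with limma 3.58.1 in R 4.3.3 on log2(FPKM + 0.1) with an intensity trend and no block, which understates the change of low genes; fold changes are on that scale. Benjamini-Hochberg adjustment covered all 14459 genes. In data simulated from these means, 175 of 200 genes changed 2-fold were recovered. Of the calls, 0 had the wrong sign, and 8 unchanged genes were also called. The simulation gave all genes and libraries the same dispersion and changed no gene of low fragment count. Its figures therefore need not hold for low genes or for a library as variable as PCT replicate 3. The members and gene lists were chosen with earlier results of these data known, so lists are described by counts and medians. Genes named were the 10 largest called falls and rises that are protein coding with a symbol, separated between groups and at a mean FPKM of at least 5 in the higher group; called list genes; cell type markers; calcitonin genes; and the 2 most abundant genes of lists without a call. Alternatives changed the pseudocount, filter, scaling, block, length trend, test and libraries. Promoters came from RefSeq (GRCr8). Python 3.11.15 and pandas 2.3.3 summarised the fits. Some genes are not reported here.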

Additional observations from a re-analysis of the deposited data

How the results depend on the processing

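Called genes numbered 291 (219 lower, 72 higher). Between 90 and 329 were called when 1 library was left out, with 73 to 258 lower and 17 to 99 higher: 104 without Control 1, 128 without Control 2, 90 without Control 3 and 34 higher without PCT replicate 2. With FPKM of at least 5, 142 were lower. The replicate block gave 177 calls (133 lower, 44 higher), 160 of them among the 291. Same-numbered libraries correlated at 0.00194, 0.0238 and 0.147 over 10228 genes. The last, of Control 3 with PCT replicate 3, was the highest of all pairs, but not every library correlated best with its own number. These correlations cannot show whether same-numbered libraries were prepared together, which the labels do not say. Limma-voom on recovered fragments called 347, including 274 of the 291.

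List medians moved as follows. Microglia gave -0.96 with a pseudocount of 1 and -0.61 at FPKM of at least 5. At that filter homeostatic astrocytes gave -0.478, complement -1.07 and cytokines 0.0026. Quantile normalization gave -0.51 for homeostatic astrocytes, -0.23 for cytokines and -0.081 for pan-neuronal genes. With the length trend removed, pan-neuronal genes gave 0.021 and ion channels -0.048. Leaving out 1 library gave -0.78 to -0.34 for complement, -0.23 to -0.18 for cytokines, -0.49 to -0.43 for homeostatic astrocytes, 0.18 to 0.29 for the oligodendrocyte lineage, -0.12 to -0.044 for the excitatory postsynapse and -0.12 to -0.033 for GABAergic genes.
Causes were not tested. No named called gene changed direction. Values of a few fragments limit the low microglial genes.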

Other observations

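Other called genes, chosen after their values were seen, belonged to none of the lists or were described only by count. Tf, the iron carrier transferrin, was at 178, 137 and 167 FPKM in controls and 14.9, 17.7 and 17.3 FPKM with PCT, and fell by 3.26 on the log2 scale (SE 0.12, limma adjusted p = 2.87e-04). Igfbp7, a secreted binding protein of insulin-like growth factors, went from 137 ± 7.36 to 32.8 ± 4.48 FPKM (SD, n = 3 each), and Ednrb, the endothelin B receptor of astrocytes, from 175 ± 13.8 to 77.6 ± 6.14 FPKM (SD, n = 3 each). Adgre1, the macrophage receptor F4/80, fell from 20.7 ± 1.49 to 3.54 ± 0.670 FPKM, and Itgal, an integrin chain of leukocytes, from 8.46 ± 1.15 to 1.15 ± 0.415 FPKM (SD, n = 3 each). These 5 genes were separated between groups and called whichever library was left out. Of the lysosomal proteases outside the lists, Ctsh, Ctsz and Ctsc fell by 1.28, 1.46 and 0.93 (limma adjusted p = 0.00250, 0.00399 and 0.00685), the last one not past the threshold without Control 3 (0.0530).

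Rises outside the lists, also chosen after their values were seen, included Gdf15, Ppp1r15a, Angptl4, Cdkn1a and Ccnd1. Gdf15, a secreted factor of the TGF-beta family, was at 17.9, 14.6 and 16.8 FPKM in controls and 38.1, 48.0 and 50.5 FPKM with PCT (log2 fold change 1.46, SE 0.13, limma adjusted p = 0.00335), called whichever library was left out. Ppp1r15a, which restores translation after stress, rose by 1.23, and Angptl4, an inhibitor of lipoprotein lipase, by 2.53 (limma adjusted p = 0.0155 and 0.00801). Cdkn1a, the cell cycle inhibitor p21, rose from 34.0 ± 2.02 to 52.0 ± 6.32 FPKM and Ccnd1, the G1 cyclin D1, from 20.7 ± 0.529 to 33.5 ± 3.26 FPKM (SD, n = 3 each; limma adjusted p = 0.0271 and 0.0109). Ppp1r15a, Cdkn1a and Ccnd1 were lost without any of the control libraries, Cdkn1a also without PCT replicate 1 or 3, and Angptl4 without Control 3 alone (0.0544).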
